A study of Homo sapiens with 6 samples.

Results

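The genes described here are 10 enzymes of the aldo-keto reductase (AKR) and aldehyde dehydrogenase (ALDH) families, both known for detoxification. They were taken by symbol from the table of counts per gene, where each of the 10 had 1 row, out of 30230 genes in all and 17076 that passed the filter on low counts. The study sequenced polyadenylated RNA of A549, an epithelial line derived from a human lung adenocarcinoma, in 2 groups of 3 libraries. One group received a negative control (NC), and in the other (siFSCN1) FSCN1 was silenced, whose product fascin bundles actin filaments. The labels call the control a control plasmid, while the methods of the study describe a scramble siRNA for NC and siRNA directed at FSCN1. Every library came from 1 cell line, and FSCN1 was knocked down and not deleted. According to the study, all silenced libraries received the same siRNA, and all cells were collected at the same time after transfection. Whether that siRNA acts on other transcripts apart from the loss of FSCN1 was not tested.

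Aldo-keto reductases use NADPH to turn aldehydes and ketones into alcohols, and aldehyde dehydrogenases use NAD or NADP to oxidise aldehydes to acids. Both families clear reactive aldehydes from lipid peroxidation, alcohol and drugs, and several members also handle retinoids, steroids, prostaglandins or sugars. A549 cells carry a defective KEAP1, the protein that marks the transcription factor NRF2 for degradation, and many AKR and ALDH genes are known NRF2 targets.

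The libraries held between 27967301 and 36560919 counts. In FPKM, the deposited level corrected for gene length and sequencing depth, FSCN1 was at 44.98, 47.2 and 45.99 in the NC libraries and at 4.46, 2.82 and 3.19 in the silenced ones (replicates 1 to 3 throughout). The silenced gene was thus low in each library labelled siFSCN1. All 6 epithelial markers examined reached 1 FPKM. Their sum lay between 3117 and 3498 FPKM in NC and between 1759 and 2115 in siFSCN1. The 4 keratin genes among them were lower in every silenced library, whereas CDH1 went from 9.23 to 26.4 FPKM on average and EPCAM from 3.15 to 4.297, also without overlap. The part of these shifts in the results for the enzymes was not tested. The fibroblast and endothelial markers summed to at most 0.66 FPKM in any library. Leukocyte markers summed to between 3.22 and 3.72 FPKM in NC and between 4.12 and 5.15 in siFSCN1, most of it CD14, with PTPRC, the pan-leukocyte gene, at 0.01 FPKM or less. Of 7 alveolar type II markers 5 had a row, SFTPA1 and SFTPB being the exceptions. ABCA3, a lipid transporter, was at 2.91 to 2.96 FPKM in NC and 2.41 to 2.69 in siFSCN1, and SFTPC, SFTPA2, NKX2-1 and LAMP3 stayed at or below 0.12 FPKM in every library.

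Several of the results rest on telling apart genes that are near copies of each other, and their sequences are therefore shown first. AKR1C1, AKR1C2 and AKR1C3 reduce steroid hormones, and AKR1C3 also makes prostaglandin F. They lie next to each other on chromosome 10 of GRCh38, AKR1C1 on the plus strand, AKR1C2 on the minus strand after a gap of 4491 bases and AKR1C3 on the plus strand after a further 17322 bases. Their coding sequences each have 969 bases. AKR1C1 and AKR1C2 differ at 19 of these (98.0% identity), AKR1C1 and AKR1C3 at 83 (91.4%) and AKR1C2 and AKR1C3 at 87 (91.0%). Coding bases 103 to 162, counted from 1 at the start codon, hold 10 of the 19 differences between AKR1C1 and AKR1C2 and are printed 5′ to 3′ from GENCODE v44, with capitals where the 3 genes are not all the same. They come from 1 exon each, at chr10:4965932-4965991 (plus strand), chr10:5001604-5001663 (minus strand) and chr10:5096428-5096487 (plus strand).
AKR1C1: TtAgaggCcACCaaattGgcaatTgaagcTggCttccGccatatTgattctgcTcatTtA
AKR1C2: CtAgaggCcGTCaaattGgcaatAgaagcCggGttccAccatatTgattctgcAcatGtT
AKR1C3: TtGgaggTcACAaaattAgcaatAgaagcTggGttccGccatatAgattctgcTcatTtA

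The authors kept uniquely mapped reads, so that a read is counted only where such differences, or sequence outside the coding part, place it on 1 gene. Of all windows of 150 bases, the read length of the study, in the coding sequence, 4.63% in AKR1C1, 7.32% in AKR1C2 and 2.68% in AKR1C3 also occur without a mismatch in a transcript of another AKR or ALDH gene or pseudogene. None of the other 7 coding sequences had such a window. Reads that match more than 1 of the near copies are left out by that rule. In this respect the counts of the 3 AKR1C genes are less certain than those of the others. Uncertainty from genes that overlap ALDH2 and ALDH3A1 is given with those genes.

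The likeness of AKR1C1 and AKR1C2 extends to their promoters. The sequences are those of RefSeq on GRCh38.p14, from 250 bases before to 50 bases after the start, printed 5′ to 3′ on the strand of the gene. Capitals in AKR1C2 and AKR1C3 mark bases that differ from, or have no partner in, AKR1C1. They are located at chr10:4963165-4963464 (plus strand), chr10:5003808-5004107 (minus strand) and chr10:5094164-5094463 (plus strand), and for each gene the entry nearest to the start of the canonical GENCODE transcript was taken.
AKR1C1: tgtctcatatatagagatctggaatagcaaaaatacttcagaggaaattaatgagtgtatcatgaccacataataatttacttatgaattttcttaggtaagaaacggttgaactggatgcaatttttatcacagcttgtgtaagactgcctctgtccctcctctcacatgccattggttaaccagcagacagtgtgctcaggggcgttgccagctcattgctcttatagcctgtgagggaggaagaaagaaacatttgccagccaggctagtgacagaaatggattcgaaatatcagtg
AKR1C2: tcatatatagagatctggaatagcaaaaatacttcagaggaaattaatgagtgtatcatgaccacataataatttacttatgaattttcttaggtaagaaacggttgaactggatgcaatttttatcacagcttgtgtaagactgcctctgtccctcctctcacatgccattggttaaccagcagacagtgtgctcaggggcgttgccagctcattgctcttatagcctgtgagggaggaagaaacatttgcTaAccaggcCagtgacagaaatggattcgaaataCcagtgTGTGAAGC
AKR1C3: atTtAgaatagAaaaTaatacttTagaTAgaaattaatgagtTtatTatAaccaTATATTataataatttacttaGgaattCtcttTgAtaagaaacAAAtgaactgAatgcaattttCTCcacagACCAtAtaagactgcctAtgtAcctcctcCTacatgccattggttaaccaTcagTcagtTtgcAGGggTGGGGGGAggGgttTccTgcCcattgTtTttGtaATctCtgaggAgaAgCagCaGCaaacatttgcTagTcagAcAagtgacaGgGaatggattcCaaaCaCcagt

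Of the 292 bases of the AKR1C2 promoter that align with AKR1C1, 288 were identical (98.6%), and of 283 aligned in AKR1C3, 225 were (79.5%). Entries were found for 7 of the 10 genes, and not for AKR1B10, ALDH3A1 and ALDH2. The core of the antioxidant response element to which NRF2 binds, TGACNNNGC, was searched on both strands and was present in 0 of these 7 and in 13.3% of all 35116 promoter entries. The windows are short, and elements outside them were not searched.

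Levels in the NC cells ranged widely, and 7 of the 10 genes were above 100 FPKM on average over all libraries. AKR1B10, which reduces retinal and lipid aldehydes, ranked 16th of all genes by mean FPKM at 2677 ± 60.8 (SD, n = 3), followed within the set by ALDH1A1, which oxidises retinal to retinoic acid, at 1687 ± 66.0 and by AKR1B1, the aldose reductase that turns glucose into sorbitol, at 1317 ± 19.5. AKR1C2 (792 ± 37.8) and AKR1C3 (748 ± 17.98) came next and overlapped in their replicates. ALDH3A1, an aldehyde dehydrogenase of cornea and airway that is induced by xenobiotics, had 304 ± 3.80 FPKM and AKR1C1 206 ± 10.8. The remaining genes were far lower and ranked between 1920th and 2770th of all genes, with 17.6 ± 0.165 FPKM for ALDH3A2, the fatty aldehyde dehydrogenase, 16.3 ± 0.865 for AKR1A1, the aldehyde reductase found in most tissues, and 11.7 ± 0.654 for ALDH2, the mitochondrial enzyme that clears acetaldehyde. All neighbours in this order other than AKR1C2 and AKR1C3 had replicate ranges that did not overlap. The order depends on the gene length that the authors used. For AKR1C1 this length was 2.24 times that for AKR1C3, although their coding sequences have the same number of bases.

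**Figure D1:**
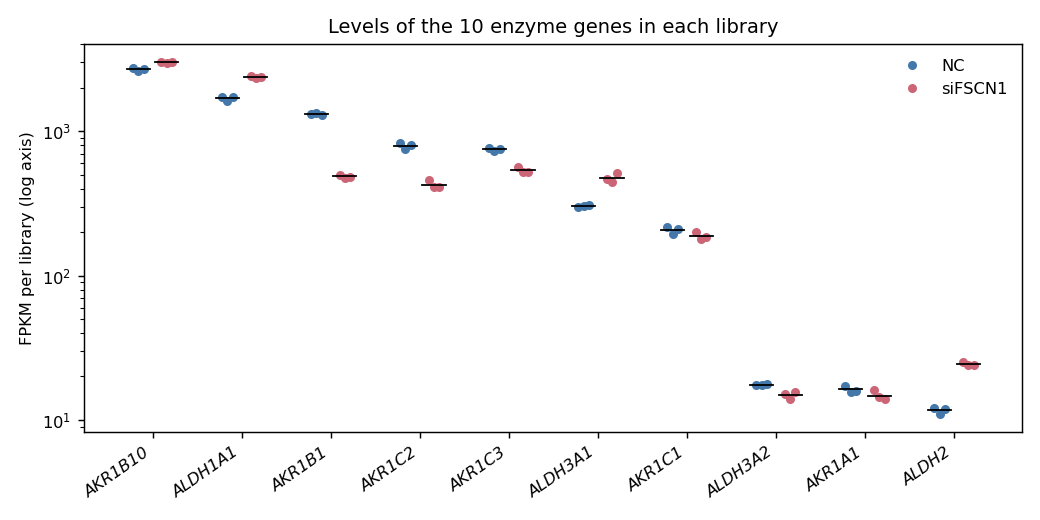
FPKM of each of the 10 genes in each library on a log axis, with NC in blue, siFSCN1 in red, 1 point per library and a bar at the group mean. AKR1B10 and ALDH1A1 led in both groups, AKR1B1 fell from 1317 to 485 FPKM on average, and the ALDH2 points of the groups lie apart at 11.7 and 24.4 FPKM.

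In siFSCN1 the order in the middle of the set changed. AKR1B10 (3006 ± 26.6 FPKM) and ALDH1A1 (2369 ± 47.5) stayed first and second, while AKR1B1 moved from the third to the fourth place at 485 ± 12.95 FPKM. Its replicates overlapped with those of ALDH3A1 (475 ± 36.5), which in turn overlapped with those of AKR1C2 (427 ± 29.9). ALDH2 moved from the last place to the eighth, above ALDH3A2 and AKR1A1, which overlapped with each other. The 10 genes together had 7579 to 7926 summed FPKM in NC and 7376 to 7692 in siFSCN1, ranges that overlap. The sum of the 6 AKR genes went from 5755 ± 116 to 4659 ± 103 FPKM and that of the 4 ALDH genes from 2020 ± 66.7 to 2884 ± 72.7, and for both families the ranges of the groups did not overlap. In counts, the 10 genes took 3.04% ± 0.0756 of each NC library and 2.71% ± 0.0434 of each siFSCN1 library (SD, n = 3). These shares did not overlap, at 2.97% to 3.12% in NC and 2.67% to 2.76% in siFSCN1. The sums were not tested.

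**Figure D2:**
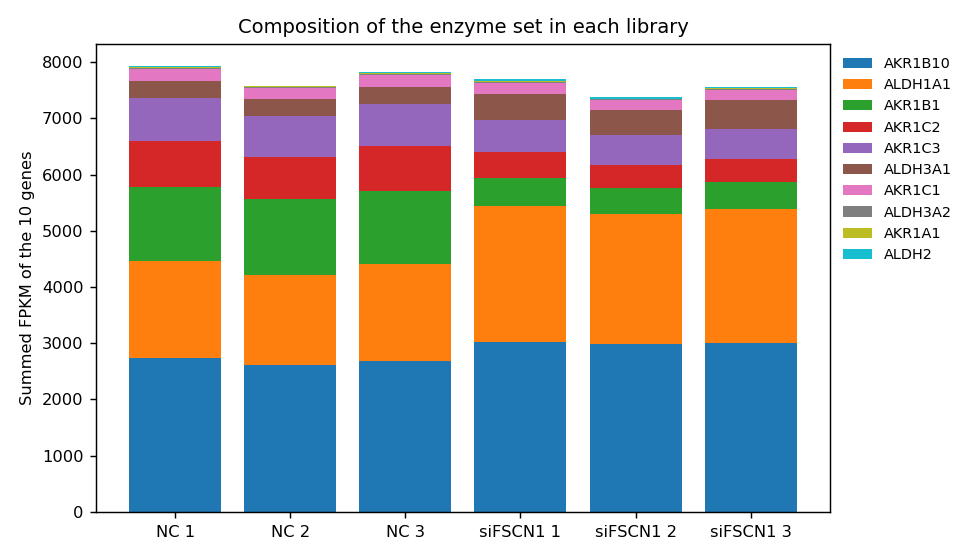
Summed FPKM of the 10 genes in each of the 6 libraries, each bar split by gene. AKR1B1 made up 16.9% of the sum in NC and 6.43% in siFSCN1 on average, and ALDH1A1 21.7% and 31.4%. The height of the bars lay between 7376 and 7926 FPKM.

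In siFSCN1, 6 of the 10 genes were lower and 3 higher than in NC at an adjusted p under 0.05 in edgeR, against 33.2% of all tested genes lower and 35.1% higher (68.3% in either direction). The lower genes were AKR1B1, AKR1C2, AKR1C3, ALDH3A2, AKR1A1 and AKR1C1, and the higher ones ALDH2, ALDH3A1 and ALDH1A1, all of them ALDH genes. The 10th gene, AKR1B10, did not pass. It passed under 4 of 16 alternatives, each time as higher, and its values below 0 in other alternatives did not pass. AKR1C1 turned from lower to slightly higher, short of the threshold, once the trend of change with abundance was removed. Those with a fall of at least 2-fold were AKR1B1 and AKR1C2, against 4.85% of all tested genes, and no gene of the set rose 2-fold, against 11.7% (16.5% of all tested genes changed 2-fold in either direction). The CPM (counts relative to the TMM-scaled library size) of 9 of the 10 genes did not overlap between the groups, as for 71.3% of all tested genes. The median log2 fold change of the set was -0.30, beside 0.03 over all tested genes and -0.41 over the 320 tested genes above 100 FPKM. These and later fold changes are TMM-scaled unless stated, while FPKM is not, so the FPKM printed beside them can give another change. On log2(FPKM + 0.1) the median over all tested genes was 0.17. Of those 320 genes, 92.8% passed the test, 81.9% lower and 10.9% higher, and 7.5% changed at least 2-fold, all of them lower. Of the 10 enzymes 7 were above 100 FPKM, and of these ALDH1A1 and ALDH3A1 were higher. The part of abundance in the changes of the enzymes was not tested beyond the alternative that removed its trend. A change in bulk RNA cannot tell fewer cells that make a transcript from less of it in each cell.

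**Figure D3:**
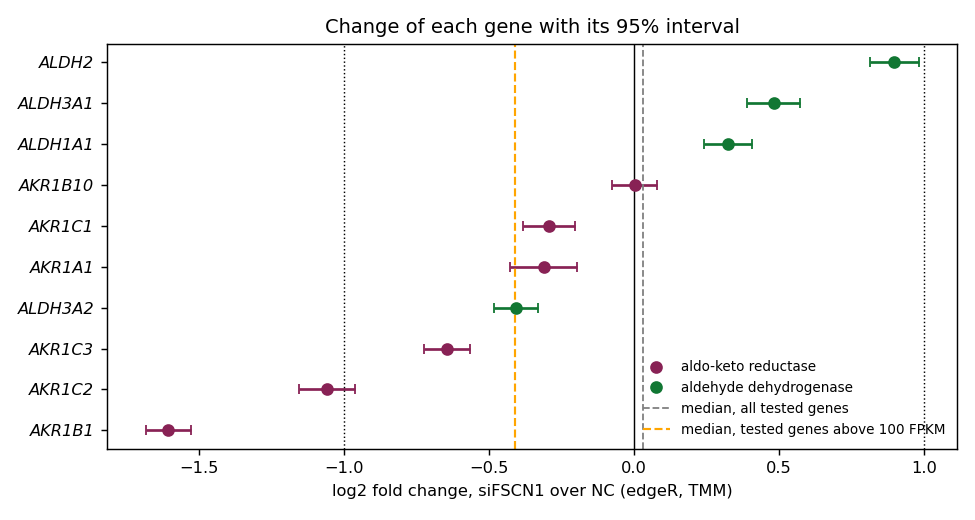
Log2 fold change of siFSCN1 over NC for the 10 genes from edgeR with TMM scaling, with 95% intervals as bars, AKR genes in purple and ALDH genes in green, dotted lines at 2-fold and dashed lines at the medians of all tested genes (0.03) and of those above 100 FPKM (-0.41). AKR1B1 lies lowest at -1.61 and ALDH2 highest at 0.90, and the interval of AKR1B10, which passed only under 4 of 16 alternatives, spans 0.

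AKR1B1 (ENSG00000085662.14, GRCh38 chromosome 7, 134442356 to 134459284, minus strand) had the largest change of the set. It had 1316, 1337 and 1298 FPKM in NC and 499, 473 and 484 in siFSCN1. Every silenced library was far below every control library, and the replicates of a group differed little, with a coefficient of variation of the CPM of 2.04% in NC and 1.33% in siFSCN1. In edgeR the log2 fold change was -1.61 (SE 0.040, adjusted p 9.5e-16), which left 32.8% of the NC level. It was at least 2-fold under all 16 alternatives, from -1.63 to -1.21.

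AKR1B10 (ENSG00000198074.10, chromosome 7, 134527567 to 134541412, plus strand) lies 68282 bases from AKR1B1, and the coding sequences of the pair are 77.1% identical. It had 2732, 2611 and 2687 FPKM in NC and 3030, 2978 and 3010 in siFSCN1, so that FPKM was higher in every silenced library. After TMM scaling the groups overlapped, at 5973 CPM ± 166 and 5978 CPM ± 31.5 (SD, n = 3). In edgeR its log2 fold change was 0.0012 (approximate 95% interval -0.08 to 0.08, adjusted p 0.979). With upper quartile scaling it was 0.12 (adjusted p 0.0179) and with library totals 0.19 (adjusted p 8.3e-05), and these scalings put the median of all tested genes at 0.15 and 0.22. With the abundance trend removed it was 0.41 (adjusted p 5.5e-09), the highest of the 16 alternatives. The ratio of AKR1B1 to AKR1B10 in FPKM within a library, from which library size cancels, was 0.482, 0.512 and 0.483 in NC and 0.165, 0.159 and 0.161 in siFSCN1. AKR1B1 was thus lower relative to AKR1B10 in all 3 silenced libraries than in any control.

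AKR1C2 (ENSG00000151632.17, chromosome 10, 4987775 to 5018031) fell most of the AKR1C genes. It had 823, 750 and 802 FPKM in NC and 461, 409 and 411 in siFSCN1, with no overlap. The test gave a log2 fold change of -1.06 (SE 0.049, adjusted p 1.7e-12). It fell short of 2-fold with library totals (-0.87), upper quartile scaling (-0.94), on both FPKM scales (-0.89 each) and with the abundance trend removed (-0.66), while its adjusted p stayed under 0.05 in all 16 alternatives.

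AKR1C3 (ENSG00000196139.14, chromosome 10, 5035354 to 5107686) had 764, 728 and 751 FPKM in NC and 566, 522 and 522 in siFSCN1. The groups lie apart, and the log2 fold change was -0.65 (SE 0.041, adjusted p 1.2e-10), between -0.69 and -0.26 in the alternatives. AKR1C1 (ENSG00000187134.14, chromosome 10, 4963253 to 4983283), the near copy of AKR1C2, changed least. Its FPKM of 215, 194 and 210 in NC and of 201, 179 and 186 in siFSCN1 overlapped. After TMM scaling its CPM did not, and the log2 fold change was -0.29 (SE 0.046, adjusted p 1.7e-05). It lost its call with limma on log2(FPKM + 0.1) and log2(FPKM + 1), at -0.13 each with an adjusted p of 0.0809 and 0.0814, and turned to 0.08 with the abundance trend removed.

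The AKR1C genes shifted against each other within a library. The ratio of AKR1C2 to AKR1C1 in FPKM was 3.82, 3.86 and 3.83 in NC and 2.29, 2.28 and 2.21 in siFSCN1, and library size cancels from it too. AKR1C2 made up 45.3% ± 0.445 of the FPKM of the 3 genes in NC and 37.02% ± 0.456 in siFSCN1, while AKR1C1 went from 11.8% ± 0.172 to 16.4% ± 0.244 and AKR1C3 from 42.9% ± 0.617 to 46.6% ± 0.485 (SD, n = 3). None of these shares overlapped between the groups. When the counts of AKR1C1 to AKR1C4 were summed into 1 row, the sum fell by 0.76 on the log2 scale (adjusted p 1.0e-10 in edgeR). Reads exchanged among the summed genes cannot alter this sum. Reads placed on genes outside it, or left out for matching more than 1 gene, are still missing. The sum cannot test the shift of the genes against each other.

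AKR1A1 (ENSG00000117448.14, chromosome 1, 45550543 to 45570049), 65.2% identical to AKR1B1 in coding sequence, had 17.3, 15.7 and 15.9 FPKM in NC and 16.1, 14.3 and 13.9 in siFSCN1, which overlap. In CPM it was lower in each silenced library, and the log2 fold change was -0.31 (SE 0.059, adjusted p 0.000129). The call was lost with library totals (-0.13, adjusted p 0.0552) and on both FPKM scales (-0.15 and -0.14). Of the 10 genes, AKR1A1 and AKR1C1 were those whose FPKM overlapped between groups, where 70.7% of all tested genes did not overlap.

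ALDH2 (ENSG00000111275.13, chromosome 12, 111766887 to 111817532) rose most of the set. It had 12.2, 10.9 and 11.9 FPKM in NC and 25.2, 23.9 and 24.1 in siFSCN1, each silenced library being above every control. The log2 fold change was 0.90 (SE 0.043, adjusted p 2.6e-12), 1.86-fold, and it stayed short of 2-fold in 11 of 16 alternatives. It passed 2-fold with upper quartile scaling (1.01), library totals (1.08), on the FPKM scales (1.06 and 1.004) and with the abundance trend removed (1.15). A second protein-coding gene, ENSG00000257767, overlaps exons of ALDH2 on the same strand. Its counts went from 3909 over the NC libraries to 7857 over the siFSCN1 libraries, and how reads were split between the pair is not stated, so the value of ALDH2 is uncertain.

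ALDH3A1 (ENSG00000108602.18, chromosome 17, 19737984 to 19748943) had 299.9, 304 and 308 FPKM in NC and 465, 445 and 516 in siFSCN1. The silenced libraries varied more than the controls, with a coefficient of variation of the CPM of 7.60% against 0.345%, and replicate 3 was the highest. The log2 fold change was 0.48 (SE 0.046, adjusted p 3.8e-08), and 0.41 without siFSCN1 replicate 3. A long non-coding RNA, ENSG00000264785, overlaps its exons on the opposite strand and had 1495 counts over the NC and 2301 over the siFSCN1 libraries. Whether counting used strand is not stated, and reads of the pair may not be separated.

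ALDH3A2 (ENSG00000072210.19, chromosome 17, 19648136 to 19685760), 52223 bases from ALDH3A1, moved the other way. It had 17.6, 17.4 and 17.8 FPKM in NC and 15.02, 14.04 and 15.6 in siFSCN1, without overlap, and a log2 fold change of -0.41 (SE 0.039, adjusted p 3.3e-08). The ratio of ALDH3A1 to ALDH3A2 was 17.1, 17.4 and 17.3 in NC and 31.0, 31.7 and 33.1 in siFSCN1. The coding sequences of this pair are 67.9% identical with no aligned identical stretch over 14 bases.

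ALDH1A1 (ENSG00000165092.13, chromosome 9, 72900671 to 73080442) was already the second gene of the set in NC. It had 1729, 1611 and 1720 FPKM in NC and 2412, 2318 and 2379 in siFSCN1, so that the groups lie apart. The log2 fold change was 0.32 (SE 0.042, adjusted p 2.0e-06), and between 0.28 and 0.74 in the alternatives. All 3 rising ALDH genes and the fall of ALDH3A2 kept their direction and an adjusted p under 0.05 in all 16 alternatives.

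**Figure D4:**
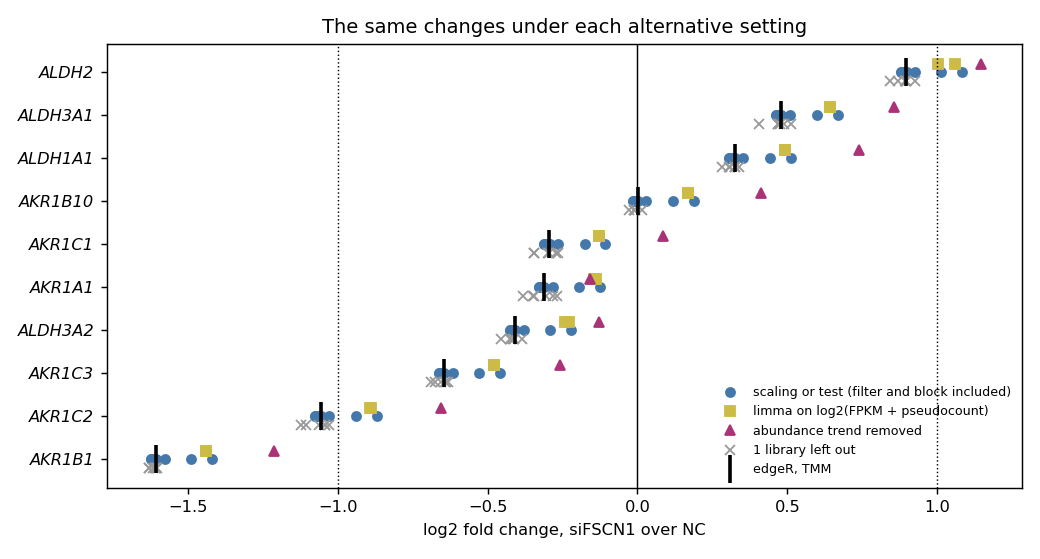
Log2 fold change of each gene under edgeR with TMM scaling (black bar) and under 16 alternatives, namely other scalings, tests, filters and the replicate block (blue), limma on FPKM (yellow), the abundance trend removed (purple) and 1 library left out (grey crosses). AKR1B1 stays beyond 2-fold throughout, AKR1B10 lies on both sides of 0 and AKR1C1 crosses 0 with the abundance trend removed.

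The rest of both families was mixed in direction. Of all tested genes, 35.1% were higher and 33.2% lower. Of 10 other aldo-keto reductase genes 8 were tested, 3 were higher and 3 lower. Among the higher ones, AKR7L and KCNAB3 were at 0.407 FPKM or less on average in both groups. AKR7A2, which reduces succinic semialdehyde, fell from 19.6 ± 0.992 to 13.7 ± 1.34 FPKM with a log2 fold change of -0.68 (adjusted p 2.8e-08). AKR1C4, the liver member of the AKR1C cluster, fell by 0.55 at about 1 FPKM, and KCNAB2, a potassium channel subunit of the same fold, by 0.28. AKR1B15, 93.5% identical to AKR1B10 in coding sequence, rose by 0.31 (adjusted p 0.000176), from 6.29 ± 0.435 to 8.73 ± 0.488 FPKM. Of 15 other aldehyde dehydrogenase genes 13 were tested, 6 were higher and 4 lower. Among the higher ones, ALDH8A1 and ALDH1L1 were at 0.333 FPKM or less on average in both groups. ALDH6A1 of valine breakdown (1.31), ALDH1L2 of mitochondrial folate metabolism (1.00) and ALDH3B1, a lipid aldehyde enzyme (0.61), rose. ALDH1A3, the retinal dehydrogenase related to ALDH1A1, fell by 1.13 on the log2 scale (adjusted p 1.2e-08), from 2.99 ± 0.388 to 1.53 ± 0.0929 FPKM.

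Of 8 regulators of NRF2, 2 were higher and 3 lower.  Beside this list and the next, 35.1% of all tested genes were higher and 33.2% lower with TMM. Above 100 FPKM, 10.9% of tested genes were higher and 81.9% lower. NFE2L2, the gene of NRF2, rose by 0.22 with TMM (adjusted p 0.000923), and its FPKM, not scaled by TMM, went from 12.4 ± 0.644 to 16.2 ± 0.895. KEAP1 was lower with TMM (log2 fold change -0.19, adjusted p 0.000473) and at 0.01 with the abundance trend removed. BACH1, a repressor at the same elements, rose by 0.94, and SQSTM1, which binds KEAP1, fell by 0.72. Of 24 NRF2 targets outside the families, 16 were lower and 5 higher with TMM, a split that turned to 8 lower and 13 higher with the abundance trend removed. HMOX1, the heme-degrading enzyme, fell from 196 to 36.6 FPKM (-2.59) and GCLC, which starts glutathione synthesis, from 18.2 to 11.0 (-0.89). ABCC3, an export pump for conjugates, rose from 15.3 to 69.9 FPKM (2.02) and SLC7A11, the cystine transporter, from 10.1 to 22.9 (1.01). The list thus held changes of at least 2-fold in both directions. The median of the list was -0.21 beside 0.03 over all tested genes.

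Genes that share substrates with the enzymes were counted in the same way, beside 35.1% of all tested genes higher and 33.2% lower. In polyol, osmolyte and methylglyoxal handling 2 of 8 genes were higher and 4 lower. SORD, which turns the sorbitol made by AKR1B1 into fructose, fell by 0.97 (adjusted p 5.6e-11), from 3.01 to 1.72 FPKM, KHK, the fructokinase, by 0.79 and GLO1, which clears methylglyoxal, by 0.50. NFAT5, the osmotic stress factor for which AKR1B1 is a known target, rose by 0.52. In retinoid metabolism 5 of 14 tested genes were higher and 4 lower. By at least 2-fold, 0 were higher and 2 lower, beside 11.7% and 4.85% of all tested genes. Those 2 were below 1 FPKM on average in both groups, and the genes named next are the largest changes at 1 FPKM or more. CYP26B1, which degrades retinoic acid, rose by 0.95, the retinoic acid receptor gene RARB by 0.71 and DHRS3, a retinal reductase, by 0.62. RDH13, of the retinol dehydrogenase family, fell by 0.56. Of 8 other carbonyl reductase genes tested, 2 were higher (PTGR2 and CBR4, by 0.65 and 0.47) and 6 lower, with DCXR (-0.78), an L-xylulose reductase, and CBR3 (-0.71) as the largest at 1 FPKM or more.

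**Figure D5:**
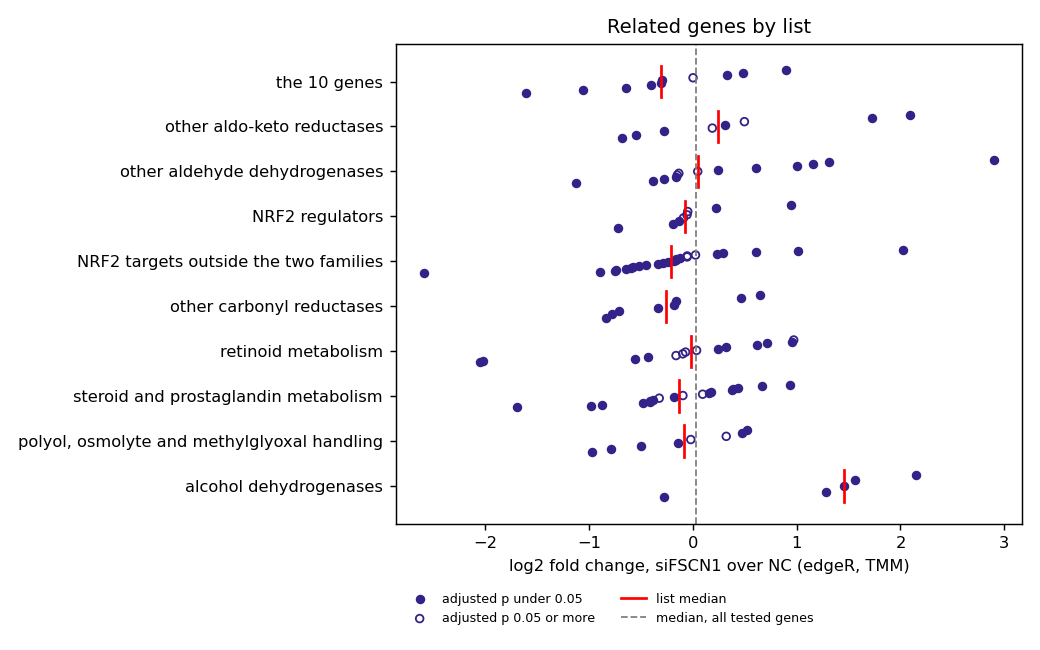
Log2 fold change of each tested gene of the set and of 9 related lists from edgeR with TMM scaling, filled where the adjusted p is under 0.05, with a red bar at the list median and a dashed line at the median of all tested genes (0.03). All lists but the alcohol dehydrogenases have medians between -0.30 and 0.25, and the split of the NRF2 targets turns from 16 lower to 13 higher with the abundance trend removed.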

How the data were processed

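RNA sequencing of A549 cells gave 3 NC and 3 siFSCN1 libraries, grouped and numbered by the sample titles. The authors deposited raw counts per gene and FPKM per gene. According to the methods of the study, reads were trimmed, aligned to GRCh38 with HISAT2 and used where uniquely mapped, while the submitters' processing notes name TopHat2. The counting program and its strand setting are not given in the sources used here. Here the counts were filtered by filterByExpr, scaled by TMM and tested by quasi-likelihood in edgeR (version 4.0.16, under R 4.3.3), and p-values were adjusted by Benjamini-Hochberg over all 17076 genes tested. The study used DESeq2, an alternative here (version 1.42.0). Standard errors came from the F statistic. The alternatives were RLE and upper quartile scaling, library totals, DESeq2, all genes with 1 count, a stricter filter (at least 1 CPM in 3 libraries and 10 counts on average), a block for the replicate number, omission of each library, limma 3.58.1 on log2(FPKM + 0.1) and log2(FPKM + 1), and summed counts of near copies. Removal of the abundance trend by a loess offset (span 0.3) was added after seeing the data. The edgeR fit with TMM and the DESeq2 fit were first run on simulated counts, and the other alternatives were not. The members and the gene lists were chosen with earlier results of these data known. From each list, up to 4 genes of largest change with an adjusted p under 0.05 and at least 1 FPKM in a group were named. Positions are from GENCODE v44, where 9 of 10 identifiers had the same version, AKR1C2 being the exception. The study calls the replicates biological. The p-values set the difference between the groups against the spread among these libraries, and do not cover other cell lines or siRNAs. Within groups, the chi-square of library pairs, divided by its degrees of freedom, was 2.95 to 7.49, above counting noise.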

Additional observations from a re-analysis of the deposited data

How the results depend on the processing

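The counts of 3 higher and 6 lower genes changed by at most 1.5 times in the 16 alternatives. They became 4 and 4 on log2(FPKM + 1) and 3 and 4 on log2(FPKM + 0.1). With library totals and with the abundance trend removed they were 4 and 5, and with upper quartile scaling 4 and 6. With the replicate number as a block they were again 3 and 6. Libraries of the same number did not deviate together (correlations of -0.03, 0.04 and -0.08), and the block changed no call of the 10 genes. With upper quartile scaling, library totals, limma at both FPKM pseudocounts, and with the abundance trend removed, 1 gene (ALDH2) was higher and 1 (AKR1B1) lower by at least 2-fold, in place of 0 and 2. AKR1B10 was at -0.0167 with RLE scaling and with DESeq2 and at -0.0082 without the filter, and from -0.0273 to 0.0136 with 1 library left out. AKR1C1 was at 0.0841 with the abundance trend removed. Summed into 1 row with ALDH3A1, ALDH3A2 takes the value 0.35, since ALDH3A1 has most of the counts.

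Among the lists, lower aldehyde dehydrogenases went from 4 to 2 with library totals and on both FPKM scales. Lower NRF2 regulators went from 3 to 1 with library totals, upper quartile scaling, both FPKM scales and the abundance trend removed. NRF2 targets went to 8 higher with library totals, and to 13 higher and 8 lower with the abundance trend removed. Higher alcohol dehydrogenases went from 4 to 2 under the stricter filter, which tests fewer genes, and lower ones from 1 to 0 with library totals and the abundance trend removed. For the remaining shifts the cause was not tested. FSCN1 ran from -4.11 to -3.41.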

Other observations

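Alcohol dehydrogenases, which supply aldehydes to the ALDH enzymes, were few in the tested set. Of 8 genes 5 were tested, of which 4 were higher and 1 lower in siFSCN1, beside 35.1% of all tested genes higher and 33.2% lower. Under the stricter filter on low counts the split was 2 higher and 1 lower. ADH1C, a class I enzyme, rose from 1.13 ± 0.286 to 3.47 ± 0.822 FPKM (SD, n = 3), a log2 fold change of 1.45 with an adjusted p of 1.1e-06 in edgeR, and ADH6 from 0.390 ± 0.147 to 1.31 ± 0.0529 FPKM (1.56). ADH5, the formaldehyde-clearing enzyme, had a log2 fold change of -0.28 with TMM, from 21.6 ± 0.632 to 20.03 ± 0.272 FPKM, and lost its call with library totals and with the abundance trend removed. The other genes that rose, ADH4 and ADHFE1, were at 0.253 FPKM or less on average in both groups.

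Among 18 tested genes of steroid and prostaglandin metabolism, 7 were higher and 8 lower, beside 35.1% of all tested genes higher and 33.2% lower. All 3 prostaglandin E synthase genes fell. PTGES, the inducible enzyme, went from 29.1 ± 1.12 to 10.1 ± 0.386 FPKM, a log2 fold change of -1.69 with an adjusted p of 1.6e-14 in edgeR. PTGES2 changed by -0.98 and PTGES3, which is also a chaperone of the HSP90 complex, by -0.87. SRD5A1, a steroid reductase, rose by 0.66, from 1.38 ± 0.126 to 2.44 ± 0.161 FPKM.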
